A study of Mus musculus with 6 samples.

Results

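Clec11a, Htr2a and Klhl13 were 3 genes of the 55421 in the count table of an RNA-seq comparison in a mouse cell model of myotonic dystrophy type 1 (DM1). They were chosen by name, on the strength of large falls seen in every replicate of this same comparison, so their fold changes are given as a description and were not tested. The cells were C2C12 myoblasts, mouse muscle precursors that form multinucleated myotubes once serum is withdrawn. Both groups were stable lines carrying GFP with 200 CUG repeats in the 3'UTR, selected with G418 and puromycin and collected after 4 days of differentiation. The control line carried the empty pLL4.0 vector and the miR-322/-503 line carried the same vector with a miR-322/-503 fragment, with 3 libraries in each group. Since control and miR-322/-503 cells were separate stable lines, what differs from line to line and what the microRNAs do cannot be told apart. The study's methods give both biological and technical replicates for its assays in general, without saying for these libraries whether each came from its own culture of the line, and p-values measure the spread between these libraries.

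Clec11a encodes a secreted glycoprotein with a C-type lectin domain, also called osteolectin or stem cell growth factor, which binds an integrin containing Itga11 and promotes bone formation by skeletal stem cells. Htr2a encodes a serotonin receptor of the G protein-coupled class that signals through Gq, phospholipase C beta and calcium, and is best known from brain cortex, platelets and smooth muscle. Klhl13 encodes a BTB-kelch protein, which works with Klhl9 as an adaptor of the Cul3 ubiquitin ligase and acts on the mitotic kinase Aurora B. The microRNAs miR-322 and miR-503 lie close together on chromosome X and belong to one seed family. A microRNA represses messages mainly through pairing of its seed, bases 2 to 8, with the 3'UTR.

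Each hairpin gives a 5p and a 3p mature microRNA with different seeds. Only the 5p seeds were searched for, so the matches below say nothing of the 3p ones. The 5p microRNAs are shown because they are part of what differed by design between the groups, with the seed in capitals (RefSeq, GRCm38.p6, minus strand, at chrX:53054306-53054327 and chrX:53054027-53054049).
miR-322-5p: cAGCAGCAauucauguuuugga
miR-503-5p: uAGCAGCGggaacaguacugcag
The complement of the seed was TGCTGCT for miR-322 and CGCTGCT for miR-503, and the 6 bases GCTGCT lay inside both. In the longest annotated 3'UTR of 13416 tested genes, TGCTGCT was found in 24.38%, CGCTGCT in 4.867% and GCTGCT in 45.22%. The Clec11a 3'UTR, 1854 bases long, held none of the 3. The Htr2a 3'UTR, 3097 bases long, held 1 CGCTGCT at base 588 and a second GCTGCT at base 2904. The annotated 3'UTRs of Klhl13, between 1079 and 1094 bases long, held neither 7-base match and a single GCTGCT at base 1017. These matches are shown with 10 bases on each side and the match in capitals, as read from the transcripts (GENCODE M21, GRCm38, at chr14:74706985-74706991, chr14:74709301-74709306 and chrX:23219343-23219348).
Htr2a, first match: ttcaataactCGCTGCTttctcttcta
Htr2a, second match: ctgctaccggGCTGCTtttagcaaaa
Klhl13: cacctgggaaGCTGCTtttgctctat
Thus Htr2a was the gene of the 3 with a 7-base match, to miR-503 alone, and Clec11a had no match. The shares over all genes were not matched for 3'UTR length. A match is only a run of letters and was not tested as a site.

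The promoters are shown because all 3 genes fell, so that the sequence before each start can be set side by side. The 250 bases before the RefSeq start are given with motif matches in capitals (GRCm38.p6, at chr7:44306960-44307209 on the minus strand, chr14:74640624-74640873 on the plus strand and chrX:23365083-23365332 on the minus strand).
Clec11a: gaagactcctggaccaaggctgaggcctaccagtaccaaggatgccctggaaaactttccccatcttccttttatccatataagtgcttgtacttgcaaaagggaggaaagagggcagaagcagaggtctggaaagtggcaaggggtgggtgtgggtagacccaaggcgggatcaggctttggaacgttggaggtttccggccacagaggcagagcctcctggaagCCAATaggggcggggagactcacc
Htr2a: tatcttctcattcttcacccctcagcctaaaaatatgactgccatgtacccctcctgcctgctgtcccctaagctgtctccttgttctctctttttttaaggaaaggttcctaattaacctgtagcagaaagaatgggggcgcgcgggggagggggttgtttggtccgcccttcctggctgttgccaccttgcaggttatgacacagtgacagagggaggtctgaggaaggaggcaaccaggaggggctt
Klhl13: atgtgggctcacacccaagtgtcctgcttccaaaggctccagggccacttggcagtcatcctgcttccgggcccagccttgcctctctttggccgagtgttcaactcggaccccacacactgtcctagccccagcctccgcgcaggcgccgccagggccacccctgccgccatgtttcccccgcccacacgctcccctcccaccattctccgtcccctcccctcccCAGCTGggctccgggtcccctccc
The motifs searched, on both strands, were the AP-1 site TGACTCA, whose reverse complement is TGAGTCA, the E-boxes CAGCTG and CAGGTG, the CCAAT box and TATAAA. Of 32851 mouse promoters of the same length, 5.202% held the AP-1 site, 16.3% CAGCTG, 20.21% CAGGTG, 37.41% CCAAT and 13.62% TATAAA, these windows running from 250 bases before to 50 bases after the start. Clec11a held CCAAT, 24 bases before its start. Klhl13 held CAGCTG, also 24 bases before the start of its first listed promoter, and 4 further promoters were listed for it. One of these overlapped the first and held the same CAGCTG, another held CCAAT, 138 bases before its start, and the remaining pair held CAGGTG, so CCAAT was found in promoters of both Clec11a and Klhl13. None of the motifs was found in the Htr2a promoter, and neither the AP-1 site nor TATAAA was found in any of the 7 promoters listed for the 3 genes.

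The libraries held between 73532084 and 92157388 estimated counts, which overstate the fragments sequenced. From the covered bases of low genes, about 4 counts were inferred to stand for 1 read pair, equivalent to 18383021 to 23039347 read pairs per library. All read pair numbers and their intervals rest on this inferred factor. Levels are given as CPM, counts scaled to library size after TMM normalization. A gene was called when its Benjamini-Hochberg adjusted p from edgeR was under 0.05 and its log2 fold change was beyond 1 in size. All 3 genes were among the 18140 tested, of which 959 (5.29%) were called lower and 832 (4.59%) higher in the miR-322/-503 group. The miRNA hairpin genes themselves had 1, 7 and 2 counts (Mir322) and 1, 1 and 2 counts (Mir503) in control, against 17, 0 and 3 and 6, 4 and 5, too few to check the overexpression. Of 14 myogenic marker genes, 13 exceeded the floor of 12 counts (3 read pairs) in every library, and their summed level was 3596 to 3906 CPM in control and 4542 to 4761 CPM in miR-322/-503, with Mef2c and Tnnt3 called higher. Of 6 adipocyte markers, 1 exceeded the floor in every library and Adipoq, Fabp4, Cidec and Lep were at 0, at a summed 7.33 to 9.20 and 7.98 to 10.5 CPM.

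Clec11a (ENSMUSG00000004473, chr7:44302687-44306902, minus strand) stood at 22.2, 22.5 and 24.5 CPM in the control libraries and at 0.0839, 0.0667 and 0.213 CPM in the miR-322/-503 libraries. The control libraries were close together. They lay far above every miR-322/-503 library, a separation for which the gene was chosen. The means were 23.1 ± 1.25 and 0.121 ± 0.0798 CPM (SD, n = 3 each), so that 0.525% of the control level was left. The log2 fold change was -7.58 with a standard error of 0.30. In reads, the 3 miR-322/-503 libraries together held 7 read pairs against 1411 in control, a ratio of 202 with a 95% exact interval of 98.0 to 505 that covers counting error only. Replicates 1 to 3 of this group had 8, 5 and 16 counts, and without replicate 3 the log2 fold change was -8.21. Clec11a passed the filter on low counts through its control libraries.

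Htr2a (ENSMUSG00000034997, chr14:74640840-74709494, plus strand) stood at 12.1, 11.1 and 14.4 CPM in control, and at 0.336, 0.213 and 0.372 CPM with miR-322/-503. The receptor message was therefore low but present in all 3 of the miR-322/-503 libraries, with 32, 16 and 28 estimated counts. Its means were 12.6 ± 1.72 and 0.307 ± 0.0832 CPM (SD, n = 3 each), leaving 2.45% of the control level. The log2 fold change was -5.34 with a standard error of 0.23, and the 768 and 19 read pairs gave a ratio of 40.6 (95% exact interval 25.8 to 67.8).

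Klhl13 (ENSMUSG00000036782, chrX:23219271-23365082, minus strand) was the most abundant of the 3, at 146, 147 and 120 CPM in control. In the miR-322/-503 libraries it stood at 5.74, 5.67 and 5.58 CPM, an even level well above the floor of 12 counts. The means were 138 ± 15.1 and 5.66 ± 0.0770 CPM (SD, n = 3 each), and 4.11% of the control level was left. The log2 fold change was -4.60 with a standard error of 0.10, from 8403 against 348 read pairs (ratio 24.3, 95% exact interval 21.8 to 27.1). Klhl13 was thus strongly lower but not gone. The count is one for the whole gene and does not separate its promoters or transcripts.

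**Figure D1:**
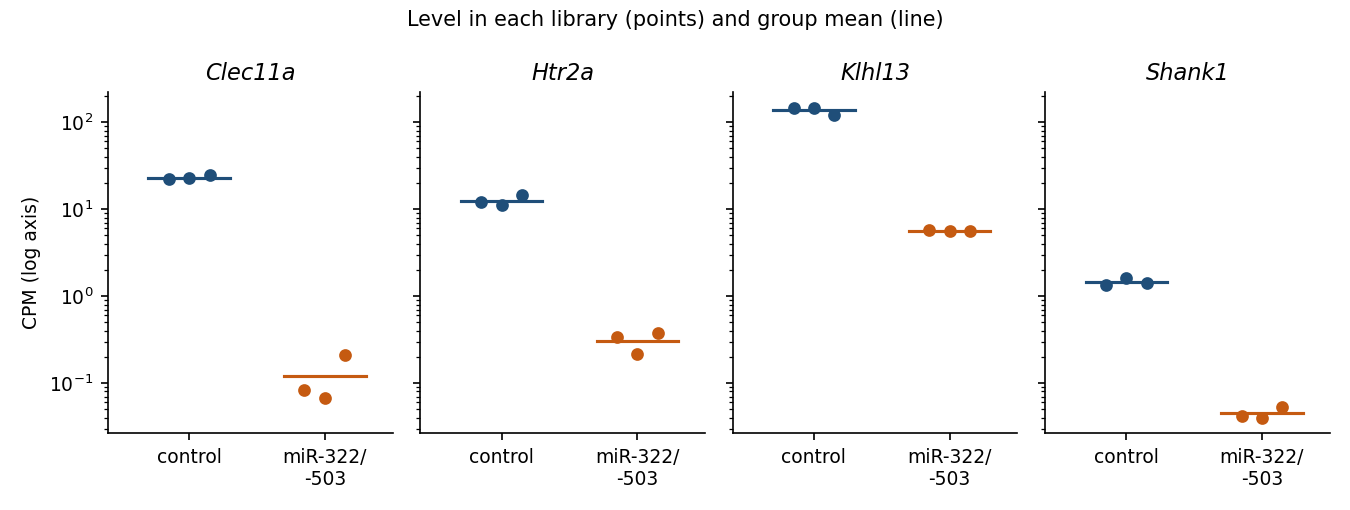
Level in CPM (log axis) of Clec11a, Htr2a, Klhl13 and Shank1, the gene next to Clec11a, in each of the 3 control and 3 miR-322/-503 libraries (points), with the group mean (line). Clec11a, Htr2a and Klhl13 were chosen for falls seen in every replicate, so the separation of their groups follows from that choice. Of the 4 genes drawn, Clec11a falls furthest, from a mean of 23.1 to 0.121 CPM.

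By size of fall, on which the 3 genes were chosen, Clec11a was 37th, Htr2a 78th and Klhl13 109th of all tested genes. The mean control level of Klhl13 was above that of 92.8% of tested genes, that of Clec11a above 60.4% and that of Htr2a above 49.9%. In bulk RNA, fewer cells making a message and less message per cell cannot be told apart, and this holds for each of the 3 genes.

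**Figure D2:**
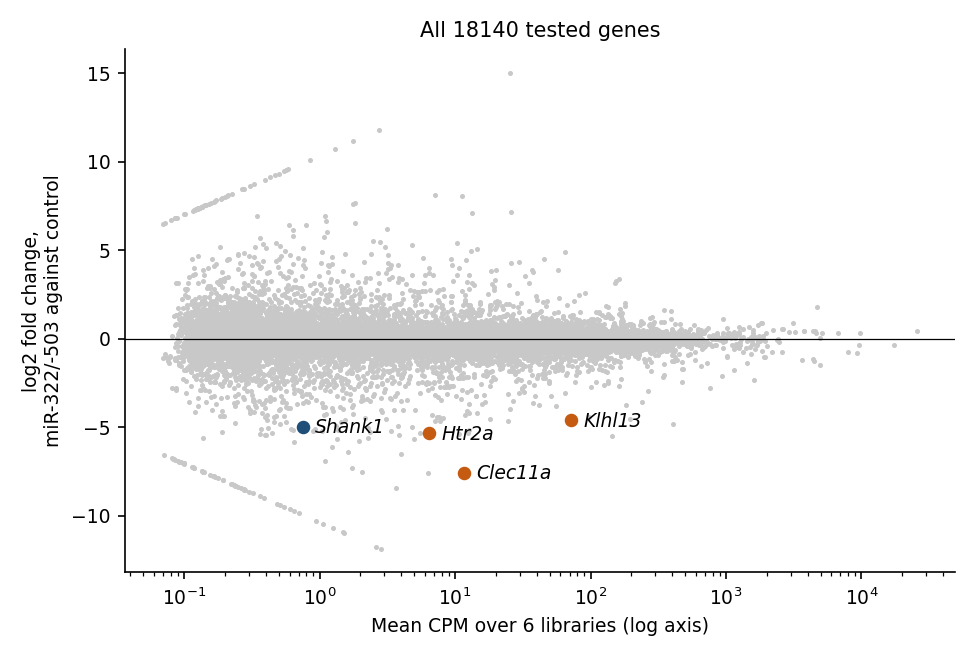
Each point is one of 18140 tested genes, with its mean CPM over 6 libraries (log axis) and its log2 fold change in miR-322/-503 against control; Clec11a, Htr2a and Klhl13 are in orange and Shank1 in blue. The straight edges are genes at 0 in one group, and the genes in orange, chosen for their falls, lie at -7.58, -5.34 and -4.60.

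Per length, as TPM from the deposited library tables, the order of the control levels was Klhl13 (97.8 ± 13.0), Clec11a (14.7 ± 0.716) and Htr2a (4.25 ± 0.576), with no overlap between libraries of neighbouring genes. In the miR-322/-503 group Klhl13 (3.52 ± 0.205 TPM) was again highest, while Htr2a (0.101 ± 0.0247 TPM) and Clec11a (0.0698 ± 0.0455 TPM) overlapped. The control order of Clec11a above Htr2a was therefore not kept beyond the spread. Adding a pseudocount of 1 TPM before the logarithm shrank the log2 fold changes of the low genes, to -3.88 for Clec11a and -2.25 for Htr2a.

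The next question was whether each fall was confined to the gene or reached the genes beside it. Around Clec11a it was shared by its nearest tested neighbour, Shank1. Around Htr2a and Klhl13 few genes were expressed and none of the tested ones was called. Start sites were compared within 500 kb of each gene's own start.

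Clec11a had 94 genes within 500 kb, of which 52 had no count in any library and 18 were tested. Of these, 2 were called lower and 1 higher (5.29% and 4.59% over all genes). At an unadjusted p under 0.05, 4 were lower and 2 higher (20.8% and 18.8% over all genes). The median log2 fold change of the 18 was -0.18, against -0.01 over all tested genes and 0.01 over the 1403 tested genes of chromosome 7. Shank1 (chr7:44310253-44360572, plus strand), which encodes a scaffold protein of excitatory synapses, starts 3.351 kb from the Clec11a start and runs the other way. It had 103, 133 and 119 counts in control, but 4, 3 and 4 with miR-322/-503. All 3 control libraries exceeded the floor and none of the others did. Shank1 was lower (1.45 ± 0.144 against 0.0451 ± 0.00711 CPM, SD, n = 3 each) with a log2 fold change of -4.97 (SE 0.33, edgeR adjusted p = 3.98e-05). Its 89 and 3 read pairs gave a ratio of 29.8 with an exact 95% interval of 9.87 to 147. On log2(TPM + 1) its log2 fold change was -0.82 and the call was lost.

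Beyond this pair the Clec11a region showed no common direction. On the far side, the nearest tested gene was Snord88c, a small nucleolar RNA gene 57.05 kb away, whose log2 fold change was -0.32 (SE 0.73, adjusted p = 0.793, edgeR) from 7 and 6 read pairs. Snord88c lies inside 2410002F23Rik, on the same strand, so reads may be shared between them. This better covered gene, which starts 60.18 kb away, stood at 49.4 ± 0.879 CPM in control and 38.1 ± 6.07 CPM in miR-322/-503. It was lower within the fold threshold (log2 fold change -0.38, SE 0.12, adjusted p = 0.0470, edgeR). Klk1b22, a kallikrein gene 194.229 kb away, was called lower (0.762 ± 0.122 against 0.299 ± 0.0233 CPM, log2 fold change -1.34, adjusted p = 0.0153), and lost the call without control replicate 2 (adjusted p = 0.0602). Klk1b14-ps, a kallikrein pseudogene 235.042 kb away, had no count in control and 34, 19 and 14 counts in the miR-322/-503 libraries, at least 1.80-fold higher against a floor of 3 read pairs in each library (adjusted p = 0.00547). The kallikrein genes of this cluster are near copies of each other, and reads may have been split between them, so both values are uncertain. No annotated gene overlapped Clec11a or Htr2a.

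Htr2a had 14 genes within 500 kb, 9 of them without any count, and the 3 tested ones, Esd, Lrch1 and Rubcnl, all lay above it on the chromosome. Their log2 fold changes ran from 0.12 to 0.46 with a median of 0.18, and edgeR called none. At an unadjusted p under 0.05, 1 of the 3 was higher and 0 were lower (against the same shares over all genes), and DESeq2 and limma also called 0. Esd, which encodes esterase D and starts 91.457 kb away, stood at 206 ± 7.56 CPM in control and 234 ± 13.3 CPM in miR-322/-503 (log2 fold change 0.18, SE 0.07, adjusted p = 0.0754), and on the TPM scale its log2 fold change was -0.09. The 40.6-fold fall of Htr2a was thus not seen in the tested genes beside it.

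Klhl13 had 4 genes within 500 kb, of which 2 had no count and 1 was tested. That gene, Wdr44, encodes a WD-repeat protein that binds Rab11 and starts 327.969 kb away. It stood at 22.8 ± 2.60 CPM in control and 27.7 ± 2.03 CPM in miR-322/-503 (log2 fold change 0.28, SE 0.11, adjusted p = 0.0927), and DESeq2 and limma did not call it either, although its unadjusted p was under 0.05. A processed pseudogene, Gm14523, overlapped Klhl13 on the same strand near its start and held 1, 1 and 1 counts in control and 1, 2 and 1 in miR-322/-503. With 1 tested gene, the region of Klhl13 was poorly covered, and the median of the 580 tested genes of chromosome X was -0.01. For Htr2a the median of the 631 tested genes of chromosome 14 was -0.06.

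**Figure D3:**
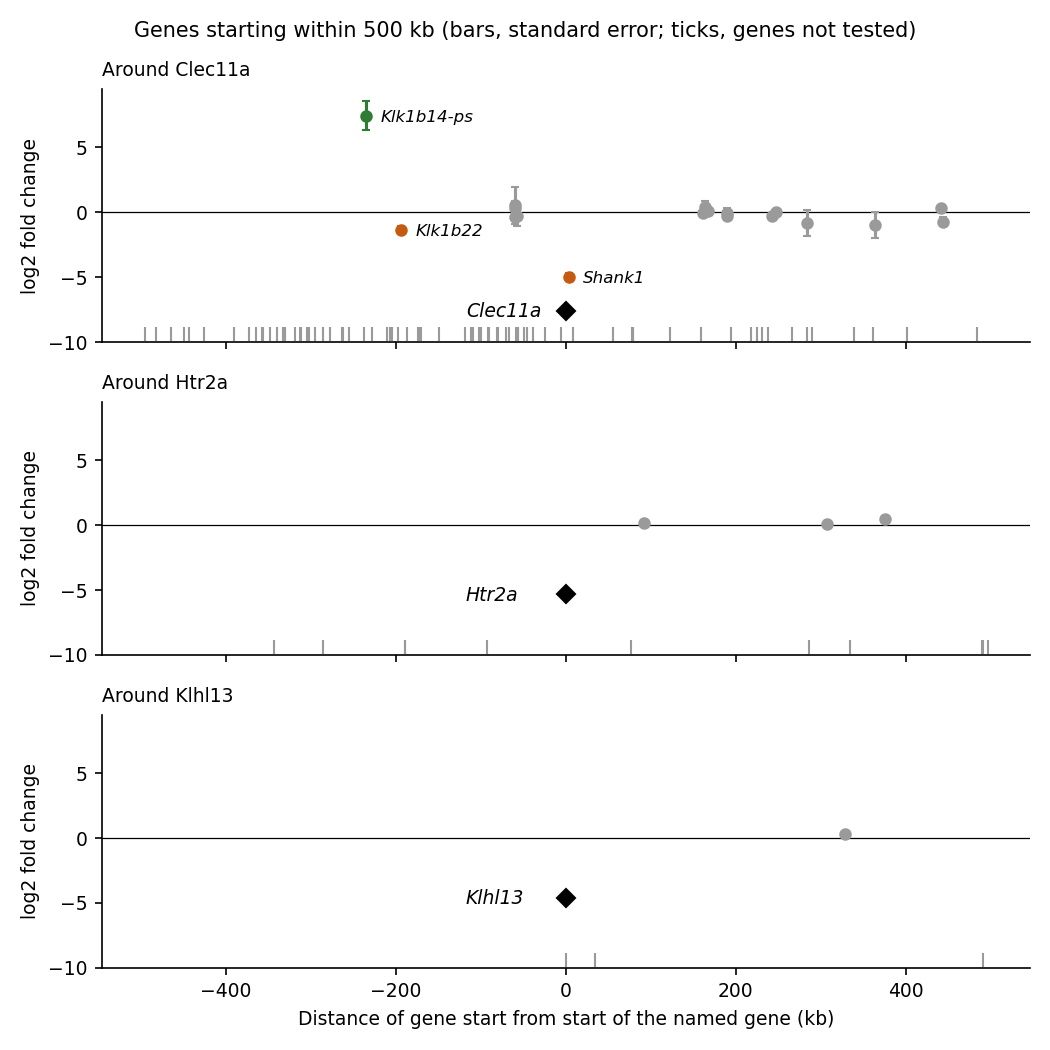
Log2 fold change of each tested gene starting within 500 kb of Clec11a, Htr2a and Klhl13 (black diamonds) against its distance in kb, with standard errors as bars, called genes in color and untested genes as ticks at the bottom. Beside Clec11a lies Shank1 at -4.97, and the 3 genes beside Htr2a and the 1 beside Klhl13 lie above 0. The value drawn for Klk1b14-ps, 7.45, is a fitted value of a gene at 0 in control.

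The receptor and downstream genes of osteolectin went both ways. Of 20 genes written down for the osteolectin receptor, Wnt signaling and the osteoblast, 17 were tested, 3 were called lower and 1 higher (5.29% and 4.59% over all genes), and the median log2 fold change was 0.08. At an adjusted p under 0.05 of any size 6 were lower and 4 higher, where 15.5% and 13.2% of all genes were. Itga11, the receptor subunit, was lower, at 55.4 ± 2.10 CPM in control and 8.88 ± 0.418 CPM in miR-322/-503 (log2 fold change -2.64, SE 0.08, edgeR adjusted p = 1.31e-06). Its partner Itgb1 was at 1071 ± 101 and 1270 ± 143 CPM and did not pass the test (adjusted p = 0.110). Thus the ligand and the particular alpha subunit both fell while the shared beta subunit gave no call. Among the Wnt genes, Lef1 (0.88, adjusted p = 0.000505), Tcf7 (0.79, adjusted p = 0.000726) and Axin2 (0.47, adjusted p = 0.0262) were higher by edgeR. Lrp5 (-0.41, adjusted p = 0.00117) and Lrp6 (-0.20, adjusted p = 0.0284) were lower, and all of these stayed within the fold threshold. Ctnnb1 did not pass the test (-0.09, adjusted p = 0.373).

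Among the osteoblast genes, Alpl, the alkaline phosphatase of mineralizing cells, was lower at 1.60 ± 0.166 against 0.236 ± 0.211 CPM (log2 fold change -2.76, adjusted p = 0.0135, edgeR). Its miR-322/-503 libraries were uneven, with 18, 35 and 4 counts, and without replicate 2 the log2 fold change was -3.66. Cxcl12, the chemokine that bone marrow stroma makes to hold blood stem cells, was lower at 215 ± 7.49 against 71.8 ± 2.22 CPM (log2 fold change -1.58, adjusted p = 3.34e-06). Bglap2, an osteocalcin gene, was higher at 0.751 ± 0.355 against 2.37 ± 0.300 CPM (log2 fold change 1.66, adjusted p = 0.0160), although it has a near copy, Bglap, with which reads may be shared. Alpl and Bglap2 lost their calls under a test against the fold threshold itself (glmTreat). Of 7 osteoblast markers, 3 exceeded the floor in every library, Ibsp was at 0, and the summed level was 63.0 to 75.5 CPM in control and 63.0 to 64.0 CPM in miR-322/-503. Their part in the fall of Clec11a was not tested.

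Few other C-type lectin genes were expressed. Of 43 listed, 11 were tested, 3 were called lower and 2 higher (5.29% and 4.59% over all genes), with a median log2 fold change of -0.69. Colec12, a scavenger receptor of the collectin family, was lower at 154 ± 0.980 against 60.1 ± 2.71 CPM (log2 fold change -1.36, adjusted p = 5.15e-06, edgeR). Thbd, thrombomodulin, was lower at 48.0 ± 1.80 against 20.8 ± 0.391 CPM (log2 fold change -1.21, adjusted p = 1.92e-05). The other lower gene was Cd302, which was named after its values were seen. Colec10, a secreted collectin, rose from 1.67 ± 0.203 to 11.3 ± 1.34 CPM (log2 fold change 2.76, adjusted p = 1.93e-05), and Clec1a, a receptor of endothelial and myeloid cells, rose from 0.538 ± 0.0606 to 1.35 ± 0.0151 CPM (log2 fold change 1.33, adjusted p = 0.00452). The Clec1a call was lost under glmTreat (adjusted p = 0.397) and on log2(TPM + 1). At an adjusted p under 0.05 of any size, 6 of the 11 were lower and 2 higher, where 15.5% and 13.2% of all genes were, so a majority of the tested family was lower beside Clec11a. Of 8 macrophage markers 3 exceeded the floor in every library, with Adgre1 and Tyrobp at 0 and Lyz2 called lower, at a summed 17.9 to 21.8 CPM in control and 16.2 to 17.3 CPM in miR-322/-503. Of 7 endothelial markers 1 did so, with Tie1 and Emcn at 0 and Tek called higher, at 1.59 to 1.98 and 3.89 to 5.57 CPM. Their part in these values was not tested.

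Beside the fall of Htr2a, other serotonin genes were called in both directions. Of 22 genes for receptors, transport, synthesis and breakdown of serotonin, 12 were tested, 3 were called higher and 1 lower (4.59% and 5.29% over all genes), with a median log2 fold change of 0.43. At an adjusted p under 0.05 of any size 5 were higher and 1 lower, beside 13.2% and 15.5% of all genes. Htr2b, a related receptor that also couples to Gq, stood at 17.4 ± 1.15 CPM in control and 14.7 ± 0.507 CPM in miR-322/-503 (log2 fold change -0.24, SE 0.09, adjusted p = 0.0732, edgeR). Its libraries did not overlap, yet the difference did not pass the test. Htr2c had no count in any library. Htr7, a receptor that raises cyclic AMP, rose from 0.865 ± 0.214 to 2.89 ± 0.190 CPM (log2 fold change 1.74, adjusted p = 0.00116).

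Of the synthesizing enzymes, Tph2, the neuronal form of tryptophan hydroxylase, was lower at 2.58 ± 0.585 against 0.344 ± 0.151 CPM (log2 fold change -2.89, adjusted p = 0.000853, edgeR). Tph1, the peripheral form, had 0, 4 and 0 counts in control and 20, 15 and 20 in miR-322/-503 and was called higher (adjusted p = 0.0348). Maob, a monoamine oxidase, was called higher at 0.361 ± 0.161 against 1.03 ± 0.311 CPM (log2 fold change 1.52, adjusted p = 0.0292). The calls of Tph1 and Maob rested on few reads and were lost with the replicate number as a block (adjusted p = 0.0725 and 0.0652), which left 2 calls in the list. Tph1 also lost its call when any library other than control replicate 2 was left out, and Maob without replicate 2 or 3 of either group. Of 8 neuron and glia markers, 2 exceeded the floor in every library, with Rbfox3 and Sox10 at 0, Tubb3 called higher and Gfap lower. Their summed level was 50.9 to 52.9 CPM in control and 103 to 117 CPM in miR-322/-503, and their part in these values was not tested.

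Downstream of Htr2a, Gq signaling genes were called in both directions. Of 44 Gq signaling genes in the files, 38 were tested, 4 were called lower and 1 higher (5.29% and 4.59% over all genes), and at an adjusted p under 0.05 of any size 13 were lower and 4 higher, where 15.5% and 13.2% of all genes were. Gnaq, the alpha subunit itself, had a log2 fold change of -0.01 (SE 0.06, adjusted p = 0.918, edgeR) whose sign changed with the scaling, and Gna11 one of 0.08 (adjusted p = 0.347). The phospholipases Plcb1 (0.08, adjusted p = 0.620), Plcb3 (0.10, adjusted p = 0.295) and Plcb4 (-0.18, adjusted p = 0.131) did not pass the test either. So no call was made among these 5 transducers of the receptor.

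Of 5 tested Rgs genes, which switch G proteins off by speeding GTP hydrolysis, Rgs4 and Rgs2 were called lower, while Rgs16 was higher within the fold threshold (2.91 ± 0.479 against 4.44 ± 0.529 CPM, log2 fold change 0.61, edgeR adjusted p = 0.0379). Rgs3 (-0.04, adjusted p = 0.815) and Rgs5 (-0.59, adjusted p = 0.404) did not pass the test. Rgs4 had 2189, 2292 and 3035 counts in control and 312, 107 and 226 in miR-322/-503, with means of 30.7 ± 4.58 and 2.57 ± 0.998 CPM (log2 fold change -3.57, SE 0.30, edgeR adjusted p = 0.000133). Rgs2 had means of 9.52 ± 0.593 and 2.21 ± 0.286 CPM (log2 fold change -2.11, SE 0.14, adjusted p = 4.2e-05). Nfatc2, a calcium-activated transcription factor, was lower at 1.14 ± 0.195 against 0.211 ± 0.0574 CPM (log2 fold change -2.41, adjusted p = 0.00151). The other lower gene was Rasgrp3, named after its values were seen. Gna14, another alpha subunit of the Gq class, rose from 0.201 ± 0.0336 to 0.997 ± 0.442 CPM (log2 fold change 2.30, adjusted p = 0.00610). Both Nfatc2 and Gna14 lost their calls on log2(TPM + 1), and Gna14 also under glmTreat (adjusted p = 0.0669).

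Of 48 other BTB-kelch genes, 38 were tested, 2 were called higher and 0 lower by edgeR, beside shares of 4.59% and 5.29% over all genes, and 0 were called lower by DESeq2 or limma. At an unadjusted p under 0.05, 8 were lower and 14 higher, where 20.8% and 18.8% of all genes were. At an adjusted p under 0.05 of any size, 7 were lower and 12 higher (15.5% and 13.2% over all genes), and the median log2 fold change was 0.17. Klhl9, the partner of Klhl13, was at 83.9 ± 4.64 and 88.3 ± 2.13 CPM (log2 fold change 0.07, SE 0.06, adjusted p = 0.404, edgeR). Klhl21, another adaptor for Aurora B, was lower at 28.1 ± 3.61 against 14.7 ± 1.43 CPM (log2 fold change -0.94, adjusted p = 0.00116), just short of the fold threshold. Klhl30 rose from 67.7 ± 10.6 to 176 ± 14.1 CPM (log2 fold change 1.38, adjusted p = 0.000162). Kbtbd12 rose from 0.659 ± 0.0253 to 3.56 ± 0.438 CPM (log2 fold change 2.43, adjusted p = 7.78e-05).

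Genes of the ligase that Klhl13 serves and of its substrate complex stayed within the fold threshold wherever they passed the adjusted p. Of 27 genes of the Cul3 core and the chromosomal passenger complex, all tested, 0 were called by edgeR, DESeq2 or limma, where 5.29% of all genes were called lower and 4.59% higher by edgeR, so that few calls would be made among 27 genes at that rate. At an unadjusted p under 0.05, 4 were higher and 8 lower, against 18.8% and 20.8% of all genes. At an adjusted p under 0.05 of any size 8 were lower and 2 higher (15.5% and 13.2% over all genes), and the median log2 fold change was 0.01. Cul3 itself stood at 83.5 ± 13.8 CPM in control and 85.6 ± 4.57 CPM in miR-322/-503 (log2 fold change 0.04, SE 0.11, adjusted p = 0.856, edgeR). Aurkb, which encodes Aurora B, was lower at 20.6 ± 3.10 against 12.6 ± 2.60 CPM (log2 fold change -0.70, SE 0.17, adjusted p = 0.0190) but within the fold threshold.

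**Figure D4:**
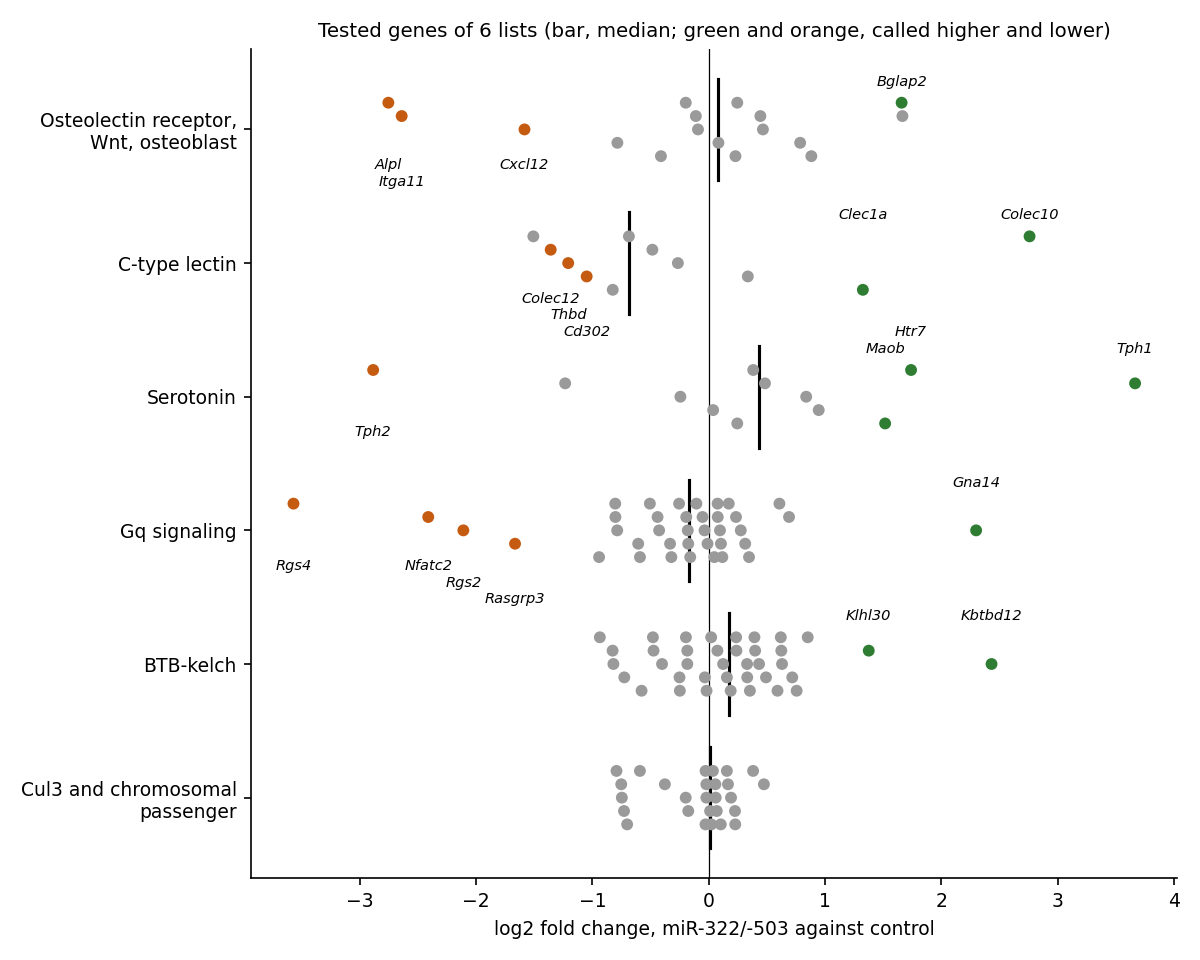
Log2 fold change in miR-322/-503 against control of the tested genes of 6 lists related to Clec11a, Htr2a and Klhl13, which are left out; orange and green points are genes called lower and higher, grey points genes not called, and bars list medians. The C-type lectin median lies furthest below 0, at -0.69, and Rgs4 at -3.57 is the lowest point.

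To find genes with a like pattern, log2 levels in the 6 libraries, computed with a prior count of 2 and taken relative to the control mean, were compared with those of each gene over 13957 genes whose higher group averaged 1 CPM or more. The likeness is given as the root mean square difference on the log2 scale, without a test. With 2 groups it mostly follows the size of the fall, on which the 3 genes were chosen, so genes with a like fall rank nearest. Nearest to Clec11a were Bnc1, a zinc finger gene of epithelia, Sfrp1, a secreted Wnt antagonist, and Eln, elastin. These had no count in any miR-322/-503 library, so that their levels there and their distances were set by the prior count, and no distance is given. They were at least 35.3-fold, 38.1-fold and 20.0-fold lower against a floor of 3 read pairs in each library. Nearest to Htr2a were Aoc3 (0.252), an amine oxidase of vessels and fat, Cacng7 (0.306, with 12, 9 and 21 counts in the miR-322/-503 libraries, near the floor), a calcium channel and glutamate receptor subunit, and Itga1 (0.317), a collagen receptor subunit, with log2 fold changes of -5.30, -5.23 and -5.40. Nearest to Klhl13 were Fat4 (0.192), an atypical cadherin, Shank1 (0.193, with its miR-322/-503 libraries under the floor, so that this distance also rests on the prior count) and Cnn1 (0.203), smooth muscle calponin, with log2 fold changes of -4.42, -4.97 and -4.52.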

How the data were processed

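RNA-seq covered 3 control and 3 miR-322/-503 libraries. Per the labels and methods, the authors used Trim Galore for trimming, HISAT2 for alignment to GRCm38 and StringTie for the deposited estimated counts per gene, which are unnormalized whole numbers; versions and the gene annotation are not given in the sources used here. The deposited library tables list, for every gene, coverage (the mean signal over its bases), FPKM and TPM. TPM was used for levels, coverage only to find that 1 count stood for 75 covered bases (median 74.97), and FPKM was not used further. TPM of the 7 to 13 genes listed more than once per table was summed. Of 55421 gene identifiers, 55240 were in GENCODE M21.

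Clec11a, Htr2a and Klhl13 and the 6 gene lists were chosen with earlier results of these data known. Counts were fitted over 18140 genes with edgeR 4.0.16 in R 4.3.3 (quasi-likelihood test, filterByExpr, TMM factors, Benjamini-Hochberg adjusted p-values). The study used DESeq2, which was run here (1.42.0) as an alternative, with other normalizations and filters, limma 3.58.1, glmTreat, a replicate block and leaving out each library. Computations were tested on simulated data. TMM factors were 0.977 to 1.03. Replicates differed beyond sampling noise (chi-square per degree of freedom 13.5 to 19.5), so none was taken for a copy. Intervals are exact binomial at 95% and, like the floor of 3 read pairs (12 counts), cover counting error only. Named genes were the called and nearest tested neighbours, at most 4 called genes per list with non-overlapping groups and the largest change, the direct partners (Itga11, Itgb1, Htr2b, Gnaq, Gna11, Plcb1, Plcb3, Plcb4, Cul3, Klhl9, Klhl21, Aurkb), overlapping genes, and the 3 nearest genes in pattern. Lrch1, Rubcnl, 2410002F23Rik, Htr2c, Bglap, Lef1, Tcf7, Axin2, Lrp5, Lrp6, Ctnnb1, Cd302, Rasgrp3, Rgs3, Rgs5 and Rgs16 fall outside this rule and were named after their values were seen. Whether counting used strand is not stated, so reads of overlapping genes on opposite strands cannot be told apart.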

Additional observations from a re-analysis of the deposited data

How the results depend on the processing

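The falls of Clec11a, Htr2a and Klhl13 kept their direction under every alternative that gave a value; a filter of at least 10 counts in every library removed Clec11a. On log2(TPM + 1), with or without the filter, the log2 fold changes were -3.88 and -2.25 for Clec11a and Htr2a, and on log2(TPM + 0.1) they were -6.48 and -4.44. Leaving out each library gave -8.21 to -7.32, -5.49 to -5.15 and -4.69 to -4.56 for Clec11a, Htr2a and Klhl13.

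Over all genes, limma on log2(TPM + 1) called 391 higher and 564 lower, or 383 and 560 without a filter, and glmTreat 396 and 530. Leaving out each library gave 715 to 806 and 886 to 965. Near Clec11a, genes called lower numbered 1 with at least 10 counts in every library or glmTreat, 0 on log2(TPM + 1) and 5 within 1000 kb, and 1 to 2 without each library. Genes called higher numbered 0 with at least 10 counts in every library, on counts per read pair and on log2(TPM + 1), 3 within 1000 kb, and 1 to 2 without each library, the 2 arising without miR-322/-503 replicate 2. Their median log2 fold change was 0.00529 with no filter, -0.0642 with at least 10 counts in every library, -0.0641 with a mean of at least 10, -0.0426 on log2(TPM + 1) (-0.00156 with no filter), -0.0644 within 250 kb and -0.0609 within 1000 kb, and -0.225 to -0.0272 without each library. Near Htr2a the median was 0.0221 on log2(TPM + 1) with no filter, -0.192 within 1000 kb and 0.156 to 0.229 without each library. Near Klhl13 it was 0.0529, 0.568 and 0.201 to 0.365, and no gene within 250 kb was tested.

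Called genes fell from 4 to 2 in the osteolectin list with glmTreat, and from 5 to 3 in the C-type lectin and Gq lists with glmTreat and on log2(TPM + 1). The serotonin list had 1 on log2(TPM + 1), 2 with glmTreat, 2 to 3 without each library, and 2 without miR-322/-503 replicate 2 or 3. Among named genes the sign changed for Snord88c (-0.949 to 0.0252 without each library), Esd (-0.0949 and -0.0952 on the TPM scales), Gnaq (0.00109 with DESeq2, 0.00128 with its size factors, 0.00740 with upper quartiles, -0.0308 to 0.0249 without each library), Plcb1 (-0.0117 to 0.121) and Cul3 (-0.0620 to 0.173), these last also without each library; none of these values with a changed sign passed the test, and Esd, not called by fold in any setting, had an adjusted p under 0.05 with DESeq2 and of 0.0281 with the replicate block. Over the named genes and alternatives, 39 values lost their call, mostly on log2(TPM + 1) or glmTreat, and Klhl21 gained one without control replicate 3 (-1.03). The causes were not tested.

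With the replicate number as a block, 747 genes were called higher and 893 lower, and the serotonin list had 2 calls. The deviations of same-numbered libraries correlated at 0.131, 0.0687 and 0.0451, so the numbers were not taken to pair the libraries. With 3 libraries per group, the few read pairs of Clec11a and Shank1 in the miR-322/-503 group and the few tested neighbours of Htr2a and Klhl13 limit what could be detected.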
